A study of Homo sapiens with 12 samples.

Results

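EGR1 and 8 other immediate early genes (EGR2, EGR3, KLF10, IER2, IER3, IER5, DUSP1 and BTG2) were followed by name in ribosome-protected fragment (RPF) and mRNA libraries of HEK293T cells given GSK-A1. EGR1 was chosen by its RPF level at 60 min against 0 min, and the others because they belong to the same class of genes. The list holds 10 Ensembl transcript identifiers for the 9 genes, and 8 of the identifiers had a row among the 18338 transcripts of the count tables. EGR2 had no row in any of the 12 tables, and of the 2 identifiers of IER2 only ENST00000588173 had one. The rows used for the rest were ENST00000239938 for EGR1, ENST00000317216 for EGR3, ENST00000285407 for KLF10, ENST00000259874 for IER3, ENST00000367577 for IER5, ENST00000239223 for DUSP1 and ENST00000290551 for BTG2. The symbols are the list's own, because the tables give identifiers alone. The question was whether what EGR1 showed at 60 min extended to the others.

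HEK293T is a transformed line from human embryonic kidney, labelled WT in every library. GSK-A1 inhibits the lipid kinase PI4KA, which makes phosphatidylinositol 4-phosphate at the plasma membrane. Each assay was sampled at 0, 60 and 360 min with 2 replicates, which makes 6 groups and 12 libraries. The treatment label reads GSK-A1 in all 12, the 0 min libraries included, and gives no dose. Among these libraries there is no vehicle arm at 60 or 360 min, so time in culture and exposure to the inhibitor cannot be told apart. The labels do not say whether replicates were separate cultures, so p-values measure only the spread between these libraries.

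Immediate early genes are transcribed within minutes of a stimulus without prior protein synthesis, and many of their mRNAs are short-lived. Growth factor signalling through ERK reaches several of them through serum response factor, which binds CArG boxes in their promoters, and cyclic AMP and calcium signals reach others through CREB, which binds cyclic AMP response elements. EGR1, EGR3 and KLF10 encode zinc finger transcription factors, DUSP1 encodes a phosphatase that inactivates MAP kinases, and BTG2 encodes an antiproliferative protein that binds the CCR4-NOT deadenylase. IER2, IER3 and IER5 encode small proteins named for their immediate early response.

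RefSeq promoters on GRCh38.p14, matched by symbol, were examined for 5 of the 8 genes: EGR1, DUSP1, IER2, IER5 and BTG2. No promoter of EGR3, KLF10 or IER3 was examined. The motif counts therefore leave out EGR3 and KLF10, whose RPF levels at 60 min were above 0 min in both replicates. The 250 bases before the start site are printed for 4 of them: EGR1, the gene the question starts from, DUSP1 and IER2, whose RPF means at 60 min were next to it in fold among the matched genes, and IER5, whose RPF mean at 60 min was close to that at 0 min. They run from chr5:138465229-138465478 (plus strand) for EGR1, chr5:172771196-172771445 (minus strand) for DUSP1, chr19:13150161-13150410 (plus strand) for IER2 and chr1:181088450-181088699 (plus strand) for IER5. Capitals mark CArG boxes and the letters TGACG on either strand, which are part of the full cyclic AMP response element TGACGTCA.
EGR1: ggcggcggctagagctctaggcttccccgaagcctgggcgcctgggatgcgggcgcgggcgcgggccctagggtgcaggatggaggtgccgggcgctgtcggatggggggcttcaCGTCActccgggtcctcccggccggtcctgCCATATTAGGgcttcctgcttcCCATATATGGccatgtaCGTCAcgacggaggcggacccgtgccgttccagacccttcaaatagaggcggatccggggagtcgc
DUSP1: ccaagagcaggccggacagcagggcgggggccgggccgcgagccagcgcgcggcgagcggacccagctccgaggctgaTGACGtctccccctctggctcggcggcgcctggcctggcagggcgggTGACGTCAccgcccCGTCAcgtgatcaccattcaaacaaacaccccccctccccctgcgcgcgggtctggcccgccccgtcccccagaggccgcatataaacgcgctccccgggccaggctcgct
IER2: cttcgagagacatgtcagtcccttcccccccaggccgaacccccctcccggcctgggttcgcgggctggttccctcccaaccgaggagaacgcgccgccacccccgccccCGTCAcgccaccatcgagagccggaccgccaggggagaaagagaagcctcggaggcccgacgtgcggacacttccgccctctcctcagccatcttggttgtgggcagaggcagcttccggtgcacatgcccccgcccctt
IER5: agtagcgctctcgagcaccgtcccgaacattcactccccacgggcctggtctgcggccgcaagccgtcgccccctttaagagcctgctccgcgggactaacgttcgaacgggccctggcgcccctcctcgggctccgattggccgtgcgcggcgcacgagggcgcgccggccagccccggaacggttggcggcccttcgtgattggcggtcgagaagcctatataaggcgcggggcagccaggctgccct
The EGR1 window held 2 CArG boxes, whose first bases lie 105 and 83 bases before the start site. None of the other 4 windows held one, and 1.16% of 35116 promoter windows of this length did. TGACG was in 4 of the 5 windows, IER5 being the exception, against 21.2% of all windows. The DUSP1 window held 4 matches of TGACG over both strands, beginning 172, 125, 122 and 111 bases before the start site. Those at 125 and 122 lie on opposite strands of the same full TGACGTCA, found in 1.65% of all windows. The EGR binding motif GCGNGGGCG, searched on both strands, was in the windows of EGR1 and BTG2 and in 8.41% of all windows. These are matches of letters, and binding at them was not measured.

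Library totals lay between 546547 and 1165740 counts in RPF and between 429026 and 1002695 in mRNA. Levels are given as CPM, counts scaled to library size by the trimmed mean of M-values (TMM), and 3 counts were worth between 2.77 and 5.61 CPM in RPF and between 2.78 and 8.42 CPM in mRNA. The 8 transcripts were thinly covered: the library count of DUSP1 in RPF was between 53 and 146, that of EGR3 between 0 and 11. Correlations of log2 CPM with the other 5 libraries of the assay were lowest, by their median, for mRNA 360 min replicate 2 (0.717 to 0.838) and mRNA 0 min replicate 2 (0.717 to 0.902), and in RPF for 360 min replicate 2 (0.841 to 0.874). Levels of different genes are not compared, since the counted length is not given in the sources used here.

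**Figure D1:**
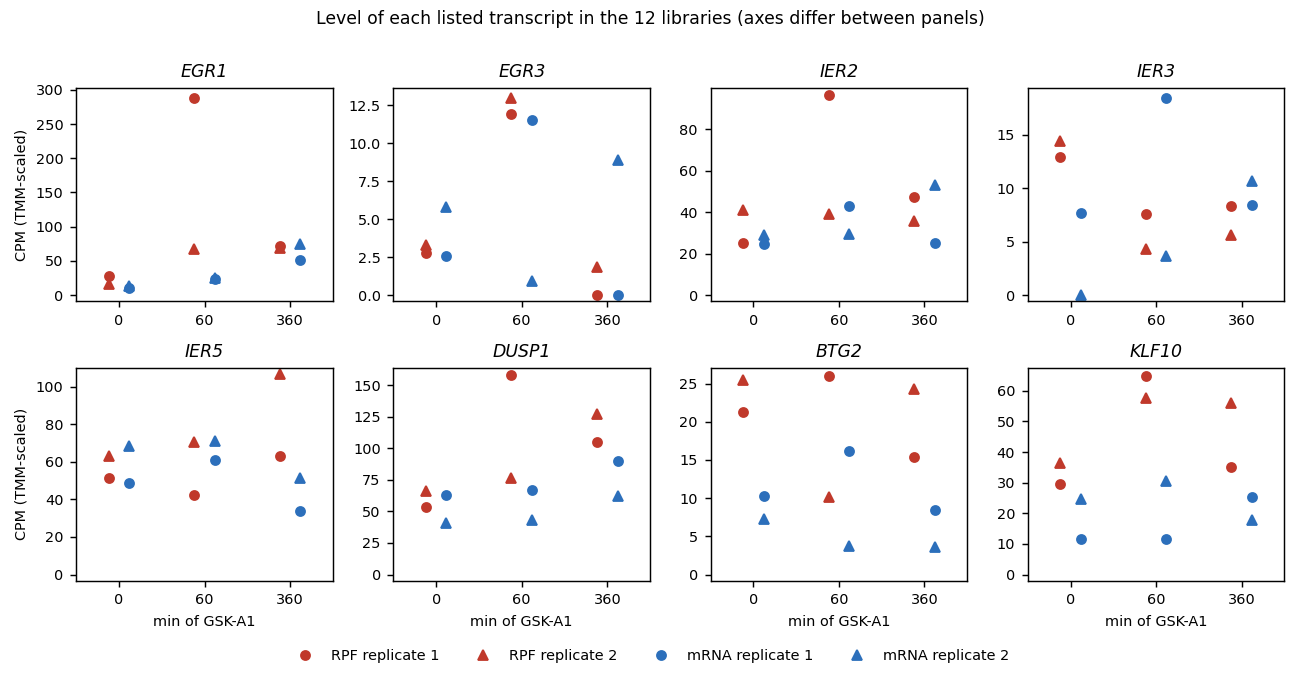
CPM of each listed transcript (vertical axis, scale differs between panels) at 0, 60 and 360 min of GSK-A1 (horizontal axis), with RPF in red, mRNA in blue, replicate 1 as circles and replicate 2 as triangles. In RPF at 60 min, replicate 1 lies far above replicate 2 for EGR1 (289 against 67.8 CPM), DUSP1 (158 against 76.5 CPM) and IER2 (96.3 against 39.0 CPM).

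In footprints at 60 min, EGR3, KLF10 and DUSP1 were above 0 min in both replicates, as EGR1 was, though DUSP1 only by little in replicate 2. IER2 was high in replicate 1 alone, and IER5, BTG2 and IER3 did not share the pattern. EGR1 is at the head of this contrast because it was chosen there, so the values of all 8 are a description and carry no test. Both 60 min libraries lay above both 0 min libraries for 4 of the 8 transcripts, EGR1 included, and both lay below for 1. EGR3 and IER3 are in these counts but did not pass the filter on low counts, and are not among the transcripts that give the background. Over all 9653 transcripts that passed the filter on low counts, 15.2% lay above in this way and 16% below. In that fit, 0% of transcripts had an edgeR adjusted p under 0.05 in either direction, and 2.31% had an unadjusted p under 0.05. DESeq2 and the edgeR fit with replicate number as a block each called 1 transcript, which was EGR1 both times. These calls are no test of EGR1, which was chosen on this contrast.

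Among the transcription factors, EGR1 had RPF levels of 27.7 and 16.6 CPM at 0 min, 289 and 67.8 CPM at 60 min, and 71.3 and 69.2 CPM at 360 min, for replicates 1 and 2. Both 60 min values were above both 0 min values, and the lower of them was just under the 360 min values. The log2 change at 60 min was 3.0 (SE 0.557), the second highest of 9653, and 1.59 without RPF 60 min replicate 1. Relative to the 0 min library of the same number, the fold was 10.4 in replicate 1 and 4.08 in replicate 2.

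EGR3 had RPF levels of 2.77 and 3.32 CPM at 0 min, 11.9 and 13.0 CPM at 60 min, and 0 and 1.87 CPM at 360 min. The 2 replicates of a time were close, and the 60 min values stood above all 4 others. They rest on 3 and 3 counts at 0 min, 11 and 9 at 60 min, and 0 and 1 at 360 min. The 95% exact Poisson interval of the count of 0 reaches 3.69 counts, and 3 counts were worth 4.20 CPM in that library. The ratio of pooled counts at 60 min over 0 min was 4.10 (95% exact Poisson interval 1.59 to 12.5, counting error only). EGR3 did not pass the filter and has no fitted change.

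KLF10 had RPF levels of 29.5 and 36.5 CPM at 0 min, 64.9 and 57.7 CPM at 60 min, and 35.0 and 56.1 CPM at 360 min. The 60 min replicates were alike and did not overlap with those at 0 min, and the 360 min replicates spanned the range between. Its log2 change at 60 min was 0.90 (SE 0.404). Of the 6 members fitted in RPF, KLF10 varied least in this contrast when a library was left out, from 0.75 to 1.07.

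DUSP1, the MAP kinase phosphatase, had RPF levels of 53.5 and 66.4 CPM at 0 min, 158 and 76.5 CPM at 60 min, and 105 and 127 CPM at 360 min. All 4 later values exceeded both 0 min values, but replicate 2 at 60 min did so by little. The log2 change at 60 min was 0.98 (SE 0.406), and 0.35 without RPF 60 min replicate 1. BTG2, which encodes an antiproliferative protein, had 21.2 and 25.5 CPM at 0 min, 26.0 and 10.1 CPM at 60 min, and 15.4 and 24.3 CPM at 360 min. Its times overlapped throughout, with a log2 change at 60 min of −0.33 (SE 0.541).

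The IER genes differed from each other. IER2 had RPF levels of 24.9 and 41.0 CPM at 0 min, 96.3 and 39.0 CPM at 60 min, and 47.5 and 35.5 CPM at 360 min. Only replicate 1 at 60 min stood above the other 5 libraries. The log2 change was 1.06 (SE 0.463), and 0.25 without that library. IER5 had 51.6 and 63.1 CPM at 0 min, 42.2 and 70.7 CPM at 60 min, and 62.9 and 107 CPM at 360 min, with a log2 change of −0.03 (SE 0.412) at 60 min. IER3 went the other way, with 12.9 and 14.4 CPM at 0 min, 7.57 and 4.33 CPM at 60 min, and 8.39 and 5.61 CPM at 360 min. Both 0 min values of IER3 were above all 4 later ones, on counts of 14 and 13 at 0 min and 3 to 7 afterwards. The ratio of pooled IER3 counts at 60 min over 0 min was 0.455 (95% exact Poisson interval 0.197 to 0.970, counting error only).

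**Figure D2:**
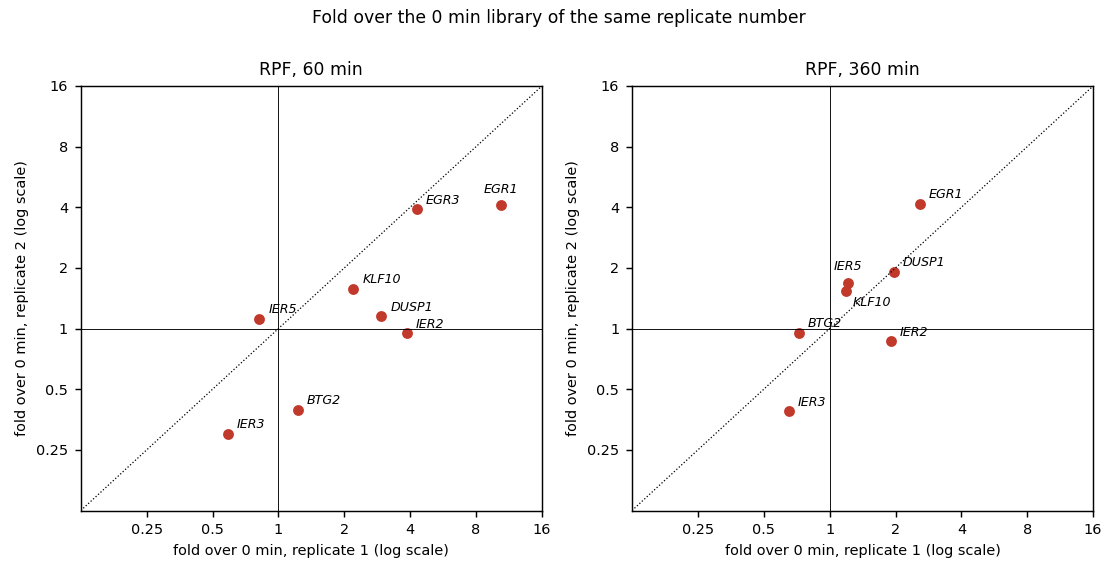
Fold of each listed transcript over the 0 min library of the same replicate number, replicate 1 on the horizontal and replicate 2 on the vertical log axis, for RPF at 60 min (left) and 360 min (right); the dotted line marks equal folds, and transcripts with a count of 0 in a library used are left out. At 60 min, IER2 (3.87 and 0.951) and DUSP1 (2.95 and 1.15) sit far right of the line, whereas EGR3 (4.30 and 3.91) lies near it.

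The 2 replicates of 60 min therefore gave different answers on how far the pattern extended. Within replicate number 1, 5 of the 8 transcripts had at least 2 times the RPF level of their 0 min library (EGR1, EGR3, IER2, DUSP1 and KLF10), where 6.91% of all transcripts tested did. Within number 2 there were 2, EGR1 and EGR3, against 5.13% of all tested. Within both numbers 0.715% of all tested reached it. Nothing is read from these counts against the background, since EGR1 was chosen on this contrast and EGR3, on 3 counts in each 0 min library, is not among the transcripts tested. Summed over the 7 transcripts other than EGR1, the RPF level was 196 and 250 CPM at 0 min, 407 and 271 CPM at 60 min, and 274 and 357 CPM at 360 min. Replicate 1 at 60 min had the highest sum, and replicate 2 at 60 min lay between the 0 min and the 360 min values.

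At 360 min the RPF levels of EGR1 and DUSP1 were above both 0 min libraries in both replicates, as were those of 13.6% of all transcripts tested. EGR3 and IER3 lay below, as did 13.8% of all tested. The ratio of pooled counts at 360 min over 0 min was 0.265 for EGR3 (95% exact Poisson interval 0.00576 to 2.18, counting error only). For IER3 it was 0.53 (0.219 to 1.16), so both intervals included no change. These comparisons use the same 0 min libraries as those at 60 min. The log2 change of EGR1 was 1.65 (SE 0.565), given with no test because its 0 min libraries helped to choose it. DUSP1 had a log2 change of 0.95 (SE 0.410), with an unadjusted p of 0.0335 and an adjusted p of 1 in edgeR's quasi-likelihood test. With replicate number as a block in that test, its unadjusted p was 0.0204 and its adjusted p 0.825. EGR1 was the 1 member with at least 2 times its 0 min RPF level within number 1 (4.67% of all tested), within number 2 (12.3%) and so within both (0.881%). The folds of DUSP1 were 1.96 and 1.91, nearly the same in both replicates, and the log2 change stayed between 0.79 and 1.09 when a library was left out. The changes of IER5 (0.55, SE 0.410), KLF10 (0.45, SE 0.419), IER2 (0.35, SE 0.484) and BTG2 (−0.25, SE 0.558) all had an edgeR adjusted p of 1. In that contrast 0% of 9653 transcripts passed in either direction, and 3.91% had an unadjusted p under 0.05. DESeq2 called 1 transcript at 360 min and the block 2, none of them a member.

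**Figure D3:**
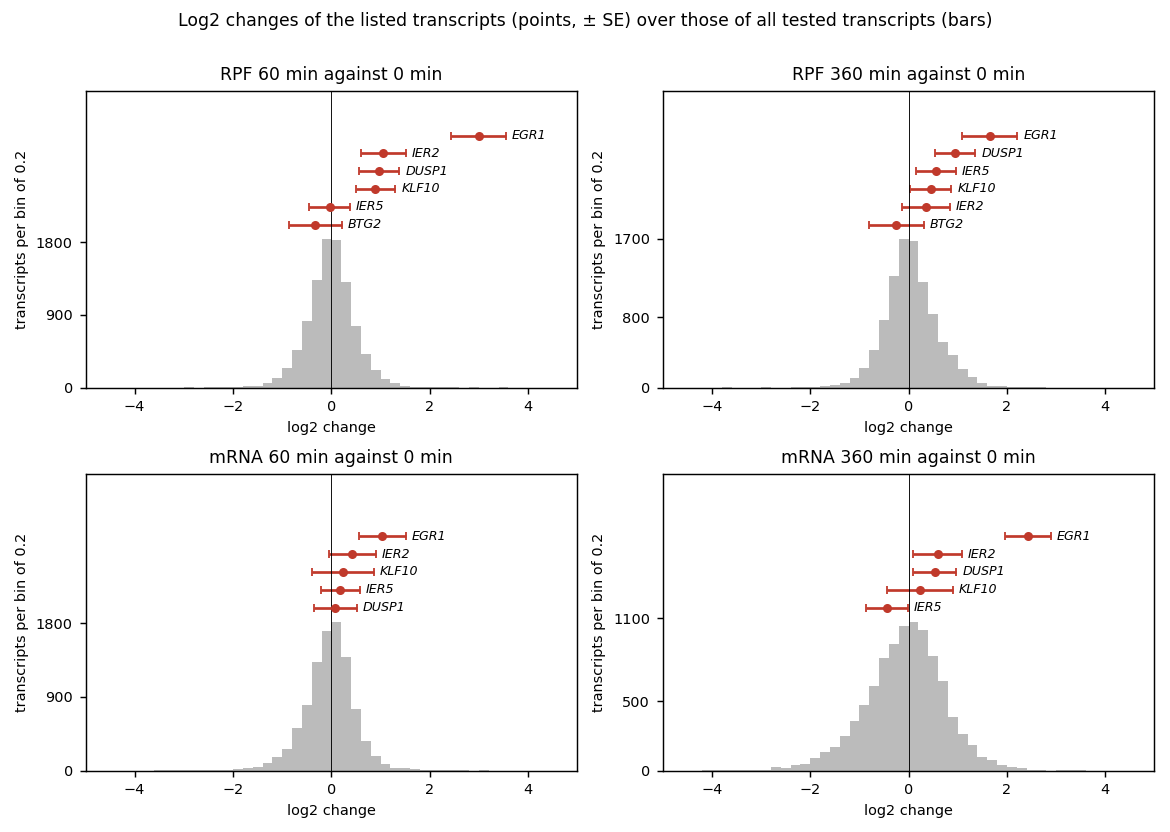
Log2 changes against 0 min of the listed transcripts that passed the filter (red points with SE bars, horizontal axis; their height only separates them) above the distribution of all tested transcripts (grey bars, number of transcripts per bin of 0.2). EGR1 is the rightmost listed transcript in all 4 panels, from 1.04 in mRNA at 60 min to 3.0 in RPF at 60 min, while BTG2 and IER5 lie at or below 0 in RPF at 60 min.

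EGR1 was chosen by its RPF level, though with earlier results of these data known. In mRNA it was also the highest of the fitted members. Its mRNA levels were 10.3 and 13.1 CPM at 0 min, 23.1 and 25.0 CPM at 60 min, and 50.5 and 74.6 CPM at 360 min. The 3 times did not overlap and increased in that order, on counts of 8 and 9, then 20 and 27, then 18 and 42. The log2 change was 1.04 (SE 0.474, edgeR adjusted p = 1) at 60 min and 2.42 (SE 0.471) at 360 min. At 360 min the unadjusted p was 0.000564 and the adjusted p was 0.558, so the change did not pass the threshold of 0.05. It passed in the edgeR fit without a filter on low counts (adjusted p = 0.0174), and over the other alternatives that gave an adjusted p this lay between 0.327 and 0.999. The log2 change was 2.14 without mRNA 360 min replicate 2 and 2.59 without mRNA 0 min replicate 2, the libraries that stood furthest from the rest. EGR1 ranked 15th of 9693 transcripts by size of this change. Between 60 and 360 min its mRNA log2 change was 1.39 (SE 0.428, edgeR adjusted p = 0.361).

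Of the other members, IER2 had both 60 min mRNA libraries (42.7 and 29.6 CPM) above both at 0 min (24.4 and 29.1 CPM), the lower 60 min value exceeding the higher 0 min value by less than 1 CPM. With EGR1 this made 2 of 8, against 13.4% of all transcripts tested that lay above in mRNA at 60 min. No member lay below in that comparison, against 12.3% of all tested. DUSP1 mRNA was 63.0 and 40.8 CPM at 0 min, 67.0 and 43.5 CPM at 60 min, and 89.8 and 62.2 CPM at 360 min. The replicates of DUSP1 differed more within a time than the means of 0 and 60 min did. IER5 mRNA was 48.8 and 68.5 CPM at 0 min, 61.2 and 71.2 CPM at 60 min, and 33.7 and 51.5 CPM at 360 min. The 360 min libraries of IER5 were both below those of 60 min, as were those of 19.6% of all transcripts tested, with a log2 change of −0.61 (SE 0.415, edgeR adjusted p = 0.654). EGR1 was the member with both 360 min libraries above those of 60 min, as were 20.7% of all tested.

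KLF10 mRNA was 11.6 and 24.8 CPM at 0 min, 11.5 and 30.5 CPM at 60 min, and 25.3 and 17.8 CPM at 360 min, so that all 3 times overlapped. At 360 min the fitted mRNA log2 changes were 0.59 for IER2 (SE 0.496), 0.53 for DUSP1 (SE 0.441), 0.23 for KLF10 (SE 0.675) and −0.44 for IER5 (SE 0.421). Their edgeR adjusted p-values lay between 0.710 and 0.928. At 60 min the 4 changes lay between 0.08 and 0.43, each smaller than its SE. In mRNA, 0% of 9693 transcripts passed in any of the 3 contrasts and either direction with edgeR. DESeq2 called 0 at 60 min, 19 at 360 min and 61 between 60 and 360 min, none of them a member. It gave no adjusted p to any fitted member at 360 min against 0 min. Between 60 and 360 min it gave none to EGR1, IER2 and KLF10, so these members could not be called there. An unadjusted p under 0.05 was found for 1.37% at 60 min, 8.92% at 360 min and 10.3% between 60 and 360 min.

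EGR3, IER3 and BTG2 did not pass the mRNA filter. EGR3 mRNA rested on 2 and 4 counts at 0 min, 10 and 1 at 60 min and 0 and 5 at 360 min, so that each time held a replicate at or under 2 counts. In the 60 min replicates EGR3 mRNA stood at 11.5 and 0.925 CPM, unlike its RPF values there, which were close to each other. IER3 mRNA rested on 6 and 0 counts at 0 min, 16 and 4 at 60 min and 3 and 6 at 360 min. The 95% exact Poisson interval of the count of 0 reaches 3.69 counts, and 3 counts were worth 4.37 CPM in that library. Both 360 min libraries of IER3 (8.42 and 10.7 CPM) were nominally above both at 0 min (7.71 and 0 CPM), and with EGR1 this made 2 of 8, against 19.8% of all transcripts tested. With library totals in place of TMM this did not hold for IER3. No member lay below at 360 min, against 19.1% of all tested. BTG2 mRNA lay between 3.55 and 16.2 CPM over the 6 libraries, on 2 to 14 counts.

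**Figure D4:**
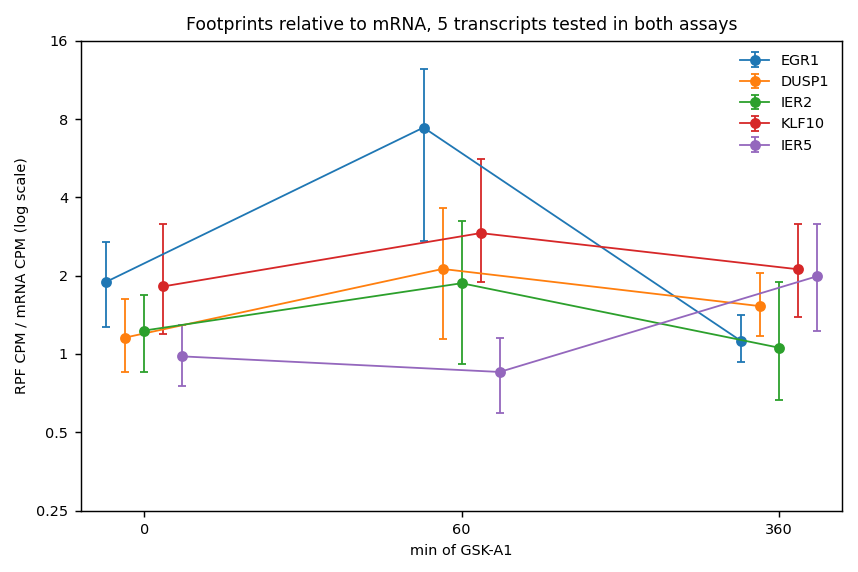
Ratio of RPF CPM to mRNA CPM (vertical log axis) at 0, 60 and 360 min of GSK-A1 for the 5 transcripts tested in both assays; points are the ratio of the means of 2 libraries and bars span the 4 ratios of single libraries. The EGR1 ratio goes from 1.89 to 7.42 to 1.12, and its bar at 60 min starts just above the end of the bar at 0 min.

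Translational efficiency (TE), the RPF level relative to the mRNA level of the same transcript, combines both assays. For EGR1 the ratio of mean CPM was 1.89 at 0 min (1.27 to 2.69 over the 4 pairs of single libraries), 7.42 at 60 min (2.71 to 12.5) and 1.12 at 360 min (0.927 to 1.41). The 60 min ratios did not overlap with those at 360 min and only just cleared those at 0 min. The RPF level of EGR1 had its highest mean at 60 min and its mRNA level at 360 min. The fitted log2 change in TE at 60 min was 1.98 (SE 0.861), and 0.57 without RPF 60 min replicate 1, again a description because it uses the RPF libraries that chose EGR1. For DUSP1 the ratio went from 1.16 to 2.12 to 1.53, for IER2 from 1.23 to 1.87 to 1.06 and for KLF10 from 1.82 to 2.91 to 2.12, and in each of these 3 the single-library ratios of all times overlapped. IER5 had 0.979, 0.852 and 1.99. Its 360 min ratios (1.22 to 3.17) overlapped with those at 0 min (0.754 to 1.29) but not with those at 60 min (0.592 to 1.155). At 360 min the fitted log2 change in TE of IER5 was 0.95 (SE 0.585, edgeR adjusted p = 0.864). The adjusted p-values of DUSP1, IER2 and KLF10 lay between 0.967 and 0.984 there, and 0% of 8632 transcripts passed at 60 or 360 min with edgeR, and 0 with DESeq2. An unadjusted p under 0.05 was found for 1.75% at 60 min and 5.66% at 360 min.

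Across the 12 libraries, with each assay centred on its own mean, the log2 CPM of IER2 and DUSP1 followed that of EGR1 most closely among the 4 other members with at least 10 CPM on average in each assay. Pearson's r with EGR1 was 0.753 for IER2, 0.738 for DUSP1, 0.537 for KLF10 and −0.313 for IER5. Among 8731 transcripts ranked by r, IER2 came 28th, DUSP1 34th, KLF10 286th and IER5 7644th. The 2 highest outside the list were ENST00000506447 (r = 0.888) and ENST00000374680 (r = 0.858). Their RPF levels in the 6 libraries ran from 17.7 to 50.9 CPM and from 18.8 to 28.1 CPM, a narrower range than that of EGR1, and their genes were not analysed here. The points share 12 libraries and their depths, and the values rest on the same 60 min libraries that chose EGR1. Without RPF 60 min replicate 1, r was 0.546 for IER2, 0.615 for DUSP1, 0.437 for KLF10 and 0.012 for IER5. The ranks of IER2, DUSP1, KLF10 and IER5 moved to 805th, 487th, 1393rd and 4409th. ENST00000506447 then came 29th (r = 0.824) and ENST00000374680 1st (r = 0.934).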

How the data were processed

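Counts per Ensembl transcript were deposited by the authors for each of the 12 libraries as whole numbers with no normalization, listing transcripts with at least 1 count, per the file headers and values. Footprints were made with RNase I, per the labels' protocols; how mRNA libraries were built is not given in the sources used here. Cutadapt 2.8, Bowtie 1.2.3 and STAR 2.7.10a are named, without roles, per the submitters' processing notes. The counter, build, annotation, counted region and use of strand are not given in the sources used here. How reads shared by overlapping genes or by related genes (the EGR family among them) were assigned is therefore not known.

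An absent row was taken as a count of 0. Counts were fitted in R 4.3.3 with edgeR 4.0.16 (filterByExpr, TMM, glmQLFit and glmQLFTest), all 6 libraries of an assay together with time as the factor, and all 12 for the interaction of assay and time (TE). P-values were adjusted by Benjamini-Hochberg over all transcripts tested, with a threshold of 0.05, and the code was tested on simulated data. CPM used the TMM-scaled totals of the transcripts that passed the filter. Every member of the list is given, and likeness to EGR1 was ranked by Pearson's r over transcripts with a mean of at least 10 CPM in each assay (prior count 2). The members and lists were chosen with earlier results of these data known. A further list of immediate early and MAP kinase feedback genes was not analysed here, since no table used pairs transcript identifiers with symbols; the kidney origin of the cells was not checked against markers for the same reason.

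Replicates 1 minus 2, over 4243 transcripts with at least 10 counts in every library, correlated at 0.345 to 0.362 between the 3 pairs of RPF times. The numbers were therefore taken to pair RPF libraries, a pairing that comes from the data and not from the labels. The main fits did not use this pairing, and only the replicate block among the alternatives did. Between mRNA times these correlations were −0.483 (0 and 60 min), −0.152 (0 and 360 min) and 0.403 (60 and 360 min). The mRNA numbers thus deviated together at 60 and 360 min but not with 0 min. They were not taken to pair mRNA libraries over the 3 times. No 2 libraries were identical. Alternatives were library totals, RLE size factors, DESeq2 1.42.0, no filter, at least 10 counts in every library, the compared libraries alone, the replicate block and leaving out each library.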

Additional observations from a re-analysis of the deposited data

Results flagged for a closer look

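For IER3 at 360 min, the 2 assays lay on opposite sides of 0 min in every library. Both RPF libraries were lower (8.39 and 5.61 CPM against 12.9 and 14.4 CPM) and both mRNA libraries were higher (8.42 and 10.7 CPM against 7.71 and 0 CPM). An edgeR interaction of assay and time was fitted for this difference without a filter on low counts, since IER3 did not pass the filter: the log2 change in TE was −2.26 (SE 1.32), with an unadjusted p of 0.0909 and an adjusted p of 0.922. The mRNA values rest on 0 to 6 counts. The pattern was lost with library totals in place of TMM, a scaling tried after seeing the data, where IER3 mRNA in 360 min replicate 1 was 7.18 CPM, below the 8.09 CPM of 0 min replicate 1.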

How the results depend on the processing

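The number of transcripts past an adjusted p of 0.05 was 0 in all 7 comparisons, and 93 of 106 alternative fits also gave 0. In RPF at 60 min, DESeq2, no filter and the replicate block each gave 1, which was EGR1 each time. None of these calls tests EGR1, since it was chosen on that contrast. When a library was left out, the EGR1 log2 change there ran from 1.59 (without RPF 60 min replicate 1) to 3.70 (without RPF 60 min replicate 2). In RPF at 360 min, DESeq2 gave 1, the replicate block 2 and leaving out a library 0 to 1 (without RPF 360 min replicate 2), none of them a member. In mRNA at 60 min no filter gave 17, none a member. In mRNA at 360 min against 0 min, DESeq2 gave 19 and no filter 89, of which EGR1 was 1. DESeq2 gave no adjusted p for any fitted member there, nor for EGR1, IER2 and KLF10 against 60 min, so it could not call them. In mRNA at 360 min against 60 min, DESeq2 gave 61, no filter 113 and leaving out a library 0 to 1 (without mRNA 0 min replicate 2), none a member. The cause was not tested. The replicate block changed no other call, and a block with the mRNA 0 min numbers exchanged, added after seeing the data, gave 0 in the 3 mRNA comparisons.

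Of 524 alternative log2 changes of members, 26 had the opposite sign: 20 of tested changes, none of which had passed, and 6 of untested ones. With library totals IER2 in mRNA at 360 against 60 min was −0.047, and with the replicate block KLF10 there was 0.11. Leaving out a library spanned −0.60 to 0.023 for BTG2 in RPF at 360 min. In mRNA at 60 min it spanned −0.019 to 0.43 for IER5, −0.23 to 0.46 for DUSP1 and −0.60 to 0.87 for KLF10. In mRNA at 360 min it spanned −0.043 to 1.01 for IER2 and −0.18 to 0.85 for KLF10, and against 60 min −0.50 to 0.56 for IER2 and −0.55 to 0.86 for KLF10. In TE at 360 min it spanned −0.65 to 0.33 for IER2 and −0.42 to 0.64 for KLF10. At least 10 counts in every library left EGR1 out of the mRNA fits, so that alternative gave no value for it there. Untested RPF changes at 60 min spanned −1.20 to 0.17 for BTG2 and −0.43 to 0.30 for IER5, and untested TE changes at 60 min −0.18 to 1.13 for IER2 and −0.60 to 0.13 for IER5.

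The counts of members whose libraries did not overlap were recomputed after seeing the data. With library totals, members above in mRNA at 360 min went from 2 to 1, losing IER3, and members below from 0 to 2, IER5 and BTG2. Leaving out a library leaves 1 in that group, which loosens the count by construction. In RPF, members above then numbered 4 to 6 at 60 min and 2 to 5 at 360 min, and members below 1 to 2 and 2 to 3. In mRNA, members above numbered 3 to 6 at 60 min, 3 to 4 at 360 min and 2 to 3 between 60 and 360 min, and members below 0 to 2, 1 to 2 and 2 to 4.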
